A study of Mus musculus with 2 samples.

Results

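Lymphatic endothelial cells, the cells that line the vessels returning tissue fluid and leukocytes to the blood, were examined in the bladder of an aged mouse. They were chosen by measured transcripts: a cell needed at least 2 of Prox1, Mmrn1, Reln and Flt4 with at least 3 UMIs (unique molecular identifiers, each standing for 1 captured transcript) in sum, at least 1 UMI of Pecam1, Cdh5 or Egfl7, and under 20 UMIs of Col1a1, Col1a2, Col3a1 and Dcn per 10000. The rule found 290 of 11660 filtered cells. The animal was 1 male p16-CreERT2/R26-LSL-tdTomato mouse of 25 months, given tamoxifen on 5 consecutive days and killed 2 weeks later. In this design a tamoxifen-dependent Cre recombinase is under p16 (Cdkn2a) control and switches on the red fluorescent protein tdTomato permanently, so tdTomato records Cre activity while tamoxifen was present and not p16 on the day of harvest. Live CD45-negative cells were sorted into a tdTomato-negative (Tom-) and a tdTomato-positive (Tom+) fraction, and each gave 1 droplet-based 3′ single-cell RNA library. Both fractions carried the same alleles and the same tamoxifen, and no untreated or Cre-negative animal was analysed here.

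With 1 library per fraction from 1 animal there was no replicate of either fraction and no test. Ratios between libraries are given with exact conditional binomial 95% intervals, levels with exact Poisson intervals and shares with exact Clopper-Pearson intervals, all of which cover counting error only. Levels are UMIs summed over the cells of a class and scaled to 1000000 UMIs of that class (CPM). Wherever a pair of values is given without further naming, Tom- comes first and Tom+ second, and the ratio is Tom+ over Tom-.

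Prox1 is the transcription factor that sets and keeps lymphatic identity, and Flt4 (VEGFR3) is the receptor through which VEGF-C drives lymphatic growth. Blunt-ended initial capillaries, rich in the hyaluronan receptor Lyve1 and the chemokine Ccl21, take up fluid and guide dendritic cells, and they drain into collecting vessels whose valves depend on factors such as Foxc2. In the bladder wall these vessels run through the lamina propria and the muscle layer.

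The Tom- library held 197 of the cells and the Tom+ library 93. Their summed depth was 1646944 and 602061 UMIs, with a median of 6805 and 5042 UMIs and of 2535 and 2057 genes per cell. The libraries shared 966 barcodes, and 1 lymphatic cell of each library had such a barcode, kept because its copy was over 10 times deeper. Of the cells, 158 in Tom- and 65 in Tom+ held all 4 rule genes. Just inside the threshold, 11 and 3 cells had exactly 3 UMIs of the rule genes. Just outside, 11 and 4 cells had 2 UMIs, 21 and 9 cells had at least 3 UMIs of a single rule gene, and 47 and 0 cells failed only on the collagen limit. Transcripts of other cell types differed between the libraries. Dcn, a fibroblast proteoglycan that the rule limits, was at 485 and 113 CPM in lymphatic and 342 and 95.5 CPM in blood endothelial cells. The haemoglobin chain Hbb-bs was found in 93.4% and 11.8% of lymphatic cells, at 4343 and 21.6 CPM, although 1 Tom- cell held 91.5% of its Tom- UMIs.

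The label held for most, not all, of these cells. Clustering the 290 cells gave 5 sub-clusters, numbered 0 to 4, and 2 of them went against the label. Sub-cluster 3 held 28 cells, 21 from Tom- and 7 from Tom+. Its leading genes included Vwf (von Willebrand factor, 978 CPM), Selp (P-selectin, 511 CPM), Flt1 (VEGFR1, 579 CPM) and Ackr1 (the atypical chemokine receptor of venules, 265 CPM), which mark blood vessels, above all veins. In it Ccl21a was found in 0 of 28 cells, which allows a share of up to 10.7%, Lyve1 in 1 cell and Prox1 in 11 cells at 68.0 CPM, so that it met the rule mainly through low counts of Reln and Flt4, each present in 22 cells. Sub-cluster 4 held 9 cells, 7 from Tom- and 2 from Tom+, with a median of 43620 and 31906.5 UMIs. It was led by urothelial genes, among them Upk3a (a uroplakin, 812 CPM) and Krt15 (a basal keratin, 2701 CPM), beside Lyve1 at 539 CPM. Scrublet, a caller of doublets, marked 7 Tom- and 2 Tom+ lymphatic cells, of which 6 and 2 lay in these 2 sub-clusters. The other 253 cells, 169 from Tom- and 84 from Tom+, are used below as the second member set. Of the 290 cells, 53 in Tom- and 16 in Tom+ held at least 2 of the blood endothelial genes Flt1, Emcn, Plvap and Vwf, with at least 3 UMIs in sum. These are more cells than sub-clusters 3 and 4 hold, so some of them are among the 253. Values are for the 290 cells of the rule unless the 253 are named. Leukocyte markers were near absent: in each library 8 of 9, Ptprc among them, had no UMI, and the detected one was Lyz2 in Tom- and Cd68 in Tom+.

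**Figure D1:**
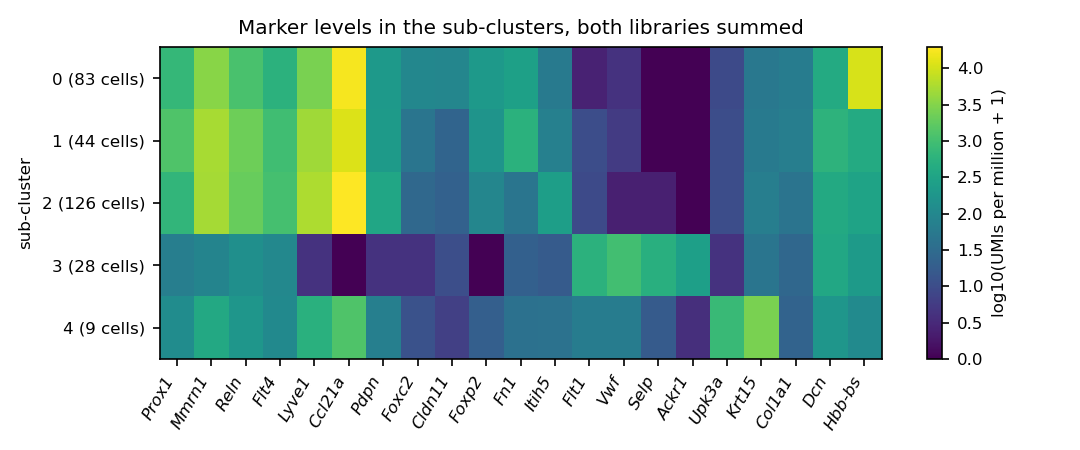
Level of 21 marker genes (columns; log10 of CPM plus 1) in the 5 sub-clusters of lymphatic endothelial cells (rows, with their cells), both libraries summed. Sub-clusters 0 to 2 share high Prox1, Mmrn1, Reln, Flt4, Lyve1 and Ccl21a, sub-cluster 3 instead shows Flt1, Vwf, Selp and Ackr1 with no Ccl21a, and sub-cluster 4 shows Upk3a and Krt15.

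Among regulators, Prox1 stood at 599 and 488 CPM, and its UMIs occurred in 87.8% and 84.9% of the cells. Its level was 816 and 657 CPM in the 253 cells. Blood endothelial cells, 588 and 157 cells, served as the comparison. They were gated on UMIs of Pecam1, Cdh5 and Egfl7 and of Flt1, Emcn, Plvap and Vwf. No Prox1 UMI was allowed, so Prox1 itself can show nothing there. Tbx1, a T-box factor of lymphatic development that the rule did not use, was at 141 and 151 CPM in lymphatic cells against 5.06 and 10.9 CPM in blood endothelial cells. Foxp2, a forkhead factor of collecting vessels, was at 109 and 94.7 CPM against 8.26 and 3.65 CPM, and Foxc2 at 38.9 and 51.5 CPM against 2.53 and 2.43 CPM. Sox18, which switches on Prox1 during development, did not separate the classes: it was at 233 and 181 CPM in lymphatic and 190 and 231 CPM in blood endothelial cells. Because both classes were gated on endothelial genes and the lymphatic one on its own markers, these differences are a description.

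Surface and secreted markers outside the rule were far higher in the lymphatic cells of either library. Lyve1 was at 3258 and 3182 CPM in lymphatic cells, and at 0.933 CPM and no UMI in blood endothelial cells. It was detected in 81.7% and 84.9% of lymphatic cells, against 1.12% and 0.670% of fibroblasts, which should lack it and had median depths of 12052.5 and 8768.5 UMIs. After thinning each cell to 2000 UMIs, which left out 4 and 10 shallower lymphatic cells, the lymphatic shares were 78.2% and 81.9% and the fibroblast shares 0.183% and 0.142%. Ccl21a, the ligand that draws CCR7-bearing dendritic cells and T cells, was the most abundant of the markers, at 11611 and 14681 CPM against 4.26 and 2.43 CPM. Its near-identical copies Ccl21b and Ccl21c had no UMI in lymphatic cells, and how reads common to the copies were assigned is not given in the sources used here, so the value stands for Ccl21a with this uncertainty. The glycoprotein podoplanin (Pdpn) was at 217 and 176 CPM against 15.3 and 7.91 CPM, and the tight-junction protein Cldn5 at 1696 and 1930 CPM against 445 and 240 CPM. Genes shared by all endothelium differed far less: Pecam1 (CD31) was at 579 and 578 CPM in lymphatic and 797 and 887 CPM in blood cells, and Cdh5 (VE-cadherin) at 375 and 405 against 479 and 556 CPM.

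**Figure D2:**
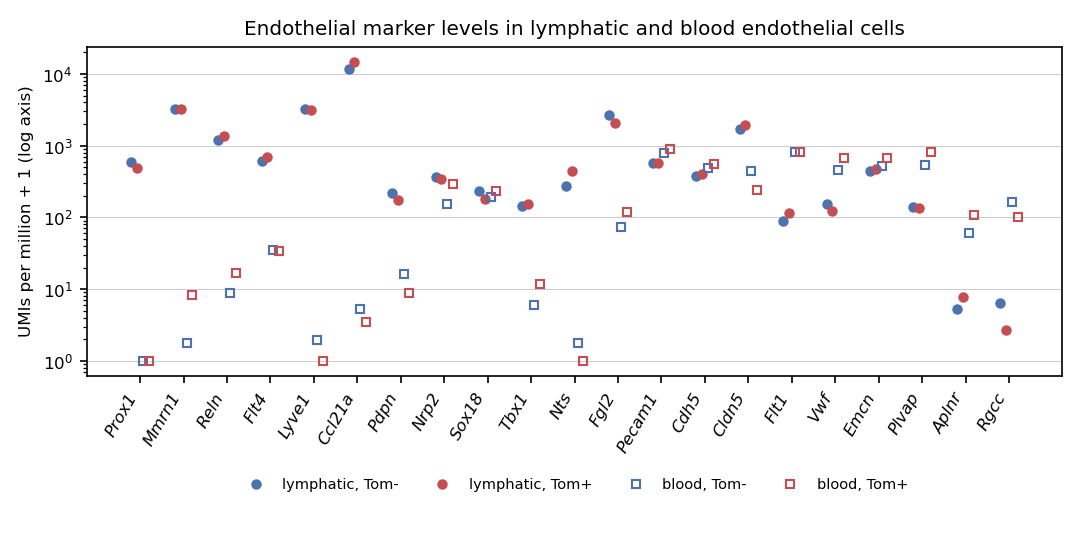
CPM plus 1 (log axis) of 21 endothelial genes in lymphatic (filled circles, 290 cells) and blood endothelial cells (open squares, 745 cells), each in the Tom- (blue) and Tom+ (red) library, 1 library each. Mmrn1, Lyve1, Ccl21a and Nts are separated by over 100 times in both libraries, whereas Sox18, Pecam1, Cdh5 and Emcn lie close. Prox1, Mmrn1, Reln, Flt4, Pecam1, Cdh5, Flt1, Vwf, Emcn and Plvap took part in the gates, so their contrasts are conditioned by choice.

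The promoters of Ccl21a, the most abundant marker, and Reln, the rule gene found in the most cells, are shown as examples of a marker outside the rule and of one the rule used. Reln is high in these cells by choice, so its contrast with blood endothelium shows nothing further. Both lie on the minus strand (RefSeq starts, build GRCm38.p6, the build of the deposited features' annotation), at chr4:42774002-42774241 and chr5:22344716-22344955, and run 5′ to 3′ to 11 bases before the start. Capitals mark a match to any of 4 motifs searched on both strands. The SOX motif was ACAAT. That of ETS factors was CCGGAA. For forkhead factors it was TGTTTAC. The letters AGATAA stood for GATA factors.
Ccl21a: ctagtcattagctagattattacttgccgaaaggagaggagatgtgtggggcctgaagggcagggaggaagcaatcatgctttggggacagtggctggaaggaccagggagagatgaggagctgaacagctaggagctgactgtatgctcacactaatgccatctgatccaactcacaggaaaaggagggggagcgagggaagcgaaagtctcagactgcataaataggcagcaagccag
Reln: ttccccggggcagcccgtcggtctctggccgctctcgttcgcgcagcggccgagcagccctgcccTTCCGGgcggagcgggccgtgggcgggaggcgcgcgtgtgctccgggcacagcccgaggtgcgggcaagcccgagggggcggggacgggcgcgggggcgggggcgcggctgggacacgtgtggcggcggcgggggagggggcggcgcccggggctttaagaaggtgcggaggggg
The Reln window is 80.8% G or C and the Ccl21a window 52.1%. Reln holds 1 ETS match, on the opposite strand from -185 to -180, and Ccl21a holds none of the 4. Of the 32851 promoters searched at this length, 27.1% hold the SOX letters, 11.2% the ETS letters, 3.06% the forkhead letters and 9.74% the GATA letters. The search left out 1 autosome, the mitochondrial genome and contigs outside the main chromosomes. Among the 21 promoters of the 4 rule genes and the 15 genes highest against blood endothelium, of which 16 of 19 genes were matched, 4 hold the SOX letters, 1 the ETS letters, 0 the forkhead letters and 1 the GATA letters, which are no larger shares. A match is a run of letters, not a bound site.

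Over all genes measured in the comparison with blood endothelium, 407 of 6622 (6.15%) were at least 2 times higher in lymphatic cells in both libraries and 336 (5.07%) were at least 2 times lower. Without sub-clusters 3 and 4 these were 554 of 6713 (8.25%) and 564 (8.4%). The blood endothelial gate had no urothelial limit, and its cells were not cleaned in the same way. Summed basal urothelial markers were at 1602 and 916 CPM in them and at 90.3 and 34.6 CPM in the 253 cells. Umbrella cell markers were at 1218 and 638 CPM against 57.9 and 32.3 CPM. The part of urothelial transcripts in the counts of lower genes was not tested. Of the 24 measured members of a list of lymphatic surface and matrix genes, 19 were higher and 1 lower, and of the 10 measured genes of initial capillaries 8 were higher and 0 lower. Both lists contain rule genes and are descriptions. The 15 genes that ranked highest were the same in the 290 and the 253 cells.

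Several of those 15 were secreted or signalling proteins. Nts, the neurotensin precursor, was at 270 and 437 CPM, against 0.799 CPM and no UMI in blood endothelium. Lcn2, a siderophore-binding lipocalin, was at 412 and 507 CPM against 2.13 and 4.26 CPM. Sema3d, a secreted semaphorin, was at 240 and 219 CPM against 1.60 and 1.22 CPM, and the proprotein convertase Pcsk6 at 180 and 191 CPM against 1.07 and 0.608 CPM. Ackr2, a decoy receptor that scavenges inflammatory chemokines, was at 84.4 and 83.0 CPM, against 0.133 CPM and no UMI in blood endothelium. The transcription factor Maf was at 1081 and 1151 CPM against 5.33 and 2.43 CPM, and Dtx1, a Deltex regulator of Notch, at 320 and 316 CPM against 0.533 CPM and no UMI. The others were Lyve1, Sh3gl3, Apba2, Slc38a4, Slc45a3, Thy1, Adgrg3 and Col23a1, with levels from 74.7 to 3258 CPM in lymphatic cells.

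Lymphatic cells also carried cytokine genes: Il7, needed for lymphocyte survival, at 158 and 116 CPM against 3.73 and 4.87 CPM, and the alarmin Il33 at 155 and 163 CPM against 27.3 and 27.4 CPM. Ackr3, the scavenger of CXCL12 and adrenomedullin, was at 185 and 153 CPM against 63.7 and 65.1 CPM. The opposite held for its ligand Cxcl12, at 77.1 and 86.4 CPM in lymphatic and 632 and 304 CPM in blood endothelial cells. CXCL12 is the ligand the study's title names. Its signalling receptor Cxcr4 had 1 UMI in the Tom- lymphatic cells and none in Tom+, where 0 of 93 cells allows a share of up to 3.23%.

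Genes lowest in lymphatic relative to blood endothelium included Fabp4, a fatty-acid carrier of capillary endothelium, at 33.4 and 1.66 CPM against 1245 and 1728 CPM, and Aplnr, the apelin receptor, at 4.25 and 6.64 CPM against 58.8 and 108 CPM. Nrp1, the co-receptor partner of blood-vessel VEGF receptors, was at 27.9 and 29.9 CPM against 257 and 255 CPM. Among the 253 cells Nrp1 was at 0.877 CPM and had no UMI in Tom+, and Aplnr had no UMI in either. Only 6 of these 15 genes ranked among the lowest 15 in both member sets. Trp63, a marker of basal urothelium, was among the lowest 15 in the 253 cells only. Endomucin (Emcn), often used for blood endothelium, helped gate that class and was barred from this ranking, so its level there is partly set by choice. It stood at 446 and 472 CPM in lymphatic cells, 486 and 449 CPM in the 253 cells, and 522 and 680 CPM in blood endothelium.

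Within the 253 cells, sub-clusters 0, 1 and 2 differed in the level of markers and in the share of cells that held them. Their genes below defined the clusters and are a description, and they keep their numbers. Sub-cluster 2, the largest with 126 cells, had the most Ccl21a (19594 CPM), Lyve1 (5912 CPM), Pdpn (348 CPM) and Maf (1919 CPM), and was led by Tppp3, Kcnn3, Itih5, Col23a1 and Igfbp6. Every one of its cells held a Lyve1 UMI. Sub-cluster 0, with 83 cells, had less Lyve1 (2695 CPM) and Piezo2 (82.2 CPM), a mechanosensitive channel of the capillary list, but the most Foxc2 (96.7 CPM), Cldn11 (93.5 CPM) and Foxp2 (203 CPM), 3 genes of collecting vessels and valves. Cldn11 was in 31 of its 83 cells, against 4 of 44 in sub-cluster 1 and 11 of 126 in sub-cluster 2, and Foxc2 in 38, 7 and 17. Other genes of these vessels were higher in sub-cluster 1 than in sub-cluster 0: the gap junction protein Gja1 at 435 and 234 CPM, the laminin chain Lamb1 at 408 and 171 CPM and Fn1 (fibronectin) at 554 and 274 CPM. The 4 leading genes of sub-cluster 0 were haemoglobin chains, followed by Apod, a lipocalin, and Cd74, the invariant chain of MHC class II. Most of its Hbb-bs UMIs came from the 1 Tom- cell named above that held most of that library's Hbb-bs, so this lead does not describe the sub-cluster as a whole. Sub-cluster 1, with 44 cells, had the highest Prox1 (1277 CPM), Flt4 was at 939 CPM, and its leaders were Scn3a (a voltage-gated sodium channel), Adam33, Fn1, Tnc (tenascin C) and Angpt2 (angiopoietin 2, 421 CPM).

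Capillary and valve transcripts occurred together in cells, with Lyve1 shares near or below that of all cells. Among 276 cells thinned to 2000 UMIs, 218 had a Lyve1 UMI, 228 a Ccl21a UMI, 211 both and 41 neither, and without sub-clusters 3 and 4 these were 212 with Lyve1, 206 with both and 11 with neither of 239. Of the 31 cells with a Foxc2 UMI, 25 also held Lyve1 (80.6%). So did 47 of 57 with Foxp2 (82.5%), 51 of 64 with Nfatc1 (79.7%) and 31 of 38 with Gja4 (81.6%). Nfatc1 is a calcium-dependent factor of valve formation and Gja4 a gap junction gene. These shares lie near the 79.0% of all 276 cells. Cldn11 overlapped least of the 5 genes examined: 10 of its 16 cells (62.5%) held Lyve1, against 79.0% of all 276. In the 239 cells the counts with Lyve1 were 24 of 30 for Foxc2, 46 of 56 for Foxp2, 51 of 61 for Nfatc1, 10 of 15 for Cldn11 and 31 of 38 for Gja4. In that order the shares were 80%, 82.1%, 83.6%, 66.7% and 81.6%, all below the 88.7% of all 239. At finer and coarser clustering the borders of sub-clusters 0 to 2 moved: at the coarser setting all 126 cells of sub-cluster 2 and all 44 of sub-cluster 1 fell in 1 cluster, whereas the 28 cells of sub-cluster 3 and the 9 of sub-cluster 4 stayed together at both settings.

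Lymphatic cells made up 1.99% (1.72 to 2.28) of the filtered cells in Tom- and 5.34% (4.33 to 6.50) in Tom+. Without sub-clusters 3 and 4 the shares were 1.70% and 4.82%. The intervals of the libraries did not overlap in either set. The share of an individual class depends on all the others and on the tdTomato gate, and blood endothelial cells also had a higher share in Tom+, 9.02% against 5.93%.

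The reporter followed the sort within the class. tdTomato was at 49.2 CPM (81 UMIs) in the negative and 1897 CPM (1142 UMIs) in the positive fraction, 38.6 times higher (30.8 to 48.9), and 49.0 times higher (36.1 to 67.9) in the 253 cells. Of lymphatic cells 26.4% and 89.2% held a tdTomato UMI, and 8.29% and 86.7% did at 2000 UMIs per cell. The Tom- share was not particular to lymphatic cells, since 45.6% of Tom- blood endothelial cells and 19.6% of Tom- fibroblasts also had a UMI, or 13.9% and 3.69% at the thinned depth. In Tom+ each sub-cluster carried the reporter, in 71.4% to 100% of its cells. The Tom- reporter was uneven: sub-cluster 3, the one led by blood vessel genes, had it at 122 CPM (79.1 to 180) in 57.1% of its cells. The other Tom- sub-clusters had it at 33.2 to 42.8 CPM.

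Cdkn2a, whose regulation drives the Cre, was nearly undetected: 3 UMIs in 1 Tom- cell and 0 UMIs in Tom+, which allows up to 4.98 CPM. A 3′ library counts the p16 and p19 transcripts of this locus together. Cdkn1a (p21), a cell-cycle inhibitor induced by p53, was at 137 and 196 CPM, 1.43 times higher (1.14 to 1.80), although the share of cells with a UMI was 37.1% and 30.1%. In the 253 cells it was at 97.3 and 161 CPM, 1.66 times (1.21 to 2.25), and 1 Tom+ cell held 38.6% of its UMIs there. The p53 target Ccng1 was at 20.6 and 36.5 CPM, 1.77 times (0.986 to 3.12). Over all genes 445 of 6974 (6.38%) were at least 1.5 times higher in Tom+, 607 (8.7%) were at least 1.5 times lower and the median log2 ratio was 0.0011. These are counts by size, not of changed genes. In simulated libraries with counting noise only, 10.5% of unchanged genes were past 1.5 times in either direction. Among the 253 cells, 470 of 6643 (7.08%) were higher and 578 (8.7%) lower. Of 15 measured p53 targets Ccng1 was the only 1 at least 1.5 times higher, and of 14 cell-cycle inhibitors and senescence regulators 0 were higher and 3 lower (Cdkn1c, Bmi1 and the pocket protein Rbl2, at 26.1 and 8.30 CPM). Among 32 measured secreted factors linked to senescence, 0 were higher and 8 lower, and their log2 ratios had a median of -0.08. Without sub-clusters 3 and 4 the counts higher and lower were 3 and 0 of 15 p53 targets, 1 and 3 of 12 inhibitors and regulators, and 2 and 5 of 27 secreted factors.

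Most lymphatic identity genes were within 1.5 times between the fractions. Prox1, Mmrn1, Reln and Flt4 chose the cells in both libraries, so their similar levels are conditioned by the rule and are a description. The make-up of the class also differed: sub-cluster 2 held 37.6% of the Tom- cells (30.8 to 44.7) and 55.9% of the Tom+ cells (45.2 to 66.2). Mmrn1 was at 3258 and 3214 CPM, with a ratio of 0.987 (0.936 to 1.04), and Lyve1 had a ratio of 0.977 (0.927 to 1.03). Prox1 was lower in Tom+ by a ratio of 0.815 (0.713 to 0.929), and Flt4, at 605 and 694 CPM, had a ratio of 1.15 (1.02 to 1.29). In sub-cluster 2 alone both turned, to log2 ratios of 0.07 for Prox1 and -0.08 for Flt4, and the Prox1 ratio also turned with no collagen limit (0.04) and after thinning (0.03). With no collagen limit the log2 ratio was 0.28 for Mmrn1 and 0.26 for Lyve1. The growth factor receptor Kdr was at 498 and 527 CPM. Ccl21a was 1.26 times higher in Tom+ (1.23 to 1.30). Its level was 17534 and 23189 CPM in sub-cluster 2 and 11575 and 12646 CPM in sub-cluster 1, but 17267 and 15807 CPM in sub-cluster 0. Fgl2, a fibrinogen-like protein, was lower at 2685 and 2093 CPM (0.779, 0.732 to 0.830). Of 19 measured lymphatic transcription factors 1 was past 1.5 times, Klf2, a shear-stress factor, at 378 and 724 CPM, where 1 Tom+ cell held 29.4% of its UMIs. Its ratio of 1.91 (1.69 to 2.17) was 1.30 (1.07 to 1.58) in the 253 cells, and its log2 ratio turned to -0.75 in sub-cluster 2 alone. None of the 10 capillary genes and none of the 7 genes of the VEGF-C axis was past 1.5 times. In the collecting and valve list, Adm (adrenomedullin) was higher, at 54.0 and 84.7 CPM with 36.0% and 39.2% of its UMIs in 1 cell, and Fn1 lower, out of 20. Of all genes 6.38% were higher and 8.7% lower. In the 253 cells 1 of 21 of this list was higher and 6 lower, against 7.08% and 8.7% of all genes.

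The 15 genes highest in Tom+ by the lower bound of their ratio included 6 that also ranked there in the 253 cells: Nts, Aqp1, Ifi27l2a, Sncg, Necap2 and Slbp. Nts stood at 270 and 437 CPM, 1.62 times higher (1.38 to 1.89) and 1.56 times (1.33 to 1.82) in the 253 cells. Aqp1, a water channel, was at 385 and 638 CPM in the 290 cells and 190 and 385 CPM in the 253, where the ratio was 2.02 (1.64 to 2.49). Its level in blood endothelium was far above these, 1272 and 2143 CPM, and leaving out sub-clusters 3 and 4 lowered it in either library. The interferon-induced Ifi27l2a was at 165 and 339 CPM, 2.06 times (1.71 to 2.48) and 2.00 times in the 253 cells, and Sncg (gamma-synuclein) at 52.2 and 123 CPM, 2.35 times (1.70 to 3.25) and 2.83 times. Necap2, a clathrin-adaptor partner, was at 32.8 and 76.4 CPM, and Slbp, which binds the stem-loop of histone mRNAs, at 23.7 and 53.2 CPM. In sub-cluster 2 alone these 6 genes had log2 ratios from 0.59 (Nts) to 1.66 (Necap2), with 0.94 for Ifi27l2a. The other 9 were Gadd45g, Grrp1, H2-Ab1, Fam171a1, Ier2, Chmp1a, Trim12c, Dusp2 and Psmd5. Among these, Gadd45g, a stress-induced growth-arrest gene, was at 98.4 and 238 CPM, 2.41 times, and 2.25 times (1.57 to 3.23) in the 253 cells, where 1 Tom+ cell held 30.0% of its UMIs. The ratio of Dusp2, a phosphatase of MAP kinases, was 1.73 and 1.25 (0.891 to 1.73) in the 253 cells. In sub-cluster 2 alone the log2 ratio turned to -1.06 for Dusp2 and -2.10 for Fam171a1, and after thinning that of Chmp1a turned to -0.36.

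Of the 15 genes lowest in Tom+, 7 also ranked there in the 253 cells: Iigp1, Angpt2, Olfm1, Fn1, Cyr61, Scn3a and Id3. Angpt2, the Tie2 ligand that acts as an agonist in lymphatics, was at 141 and 59.8 CPM, a ratio of 0.424, and 0.370 (0.246 to 0.541) in the 253 cells. Olfm1, a secreted olfactomedin, was at 249 and 96.3 CPM (0.387, and 0.407 in the 253 cells). Iigp1, an interferon-gamma-induced GTPase, was at 144 and 33.2 CPM (0.231 and 0.266), Fn1 at 179 and 83.0 CPM (0.464 and 0.455) and Cyr61, a matricellular target of YAP, at 194 and 96.3 CPM (0.497 and 0.518). Angpt2, Fn1, Cyr61 and Scn3a are leading genes of sub-cluster 1, which held 34 of the Tom- and 10 of the Tom+ cells. In sub-cluster 2 alone the log2 ratio was -0.38 for Angpt2, -2.03 for Fn1, 0.37 for Cyr61, 0.06 for Scn3a, -0.59 for Olfm1, -0.58 for Iigp1 and -0.41 for Id3, against -1.22 for Id3 in the 290 cells. Among the other 8, Gstm1, Foxq1, Igfbp2, Aqp3 and Gsto1 were far lower in the 253 cells. Gstm1, a glutathione transferase at 19614 and 20778 CPM in keratin-rich urothelial cells, was at 3536 and 1771 CPM in the 290 cells and 574 and 452 CPM in the 253, and Igfbp2, a binding protein of insulin-like growth factors, at 400 and 224 CPM and at 15.8 and 18.4 CPM. The last 3 were Id2, Sdhc and Pla2g7, and Pla2g7, at 52.8 and 6.64 CPM, had no Tom+ UMI in the 253 cells.

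**Figure D3:**
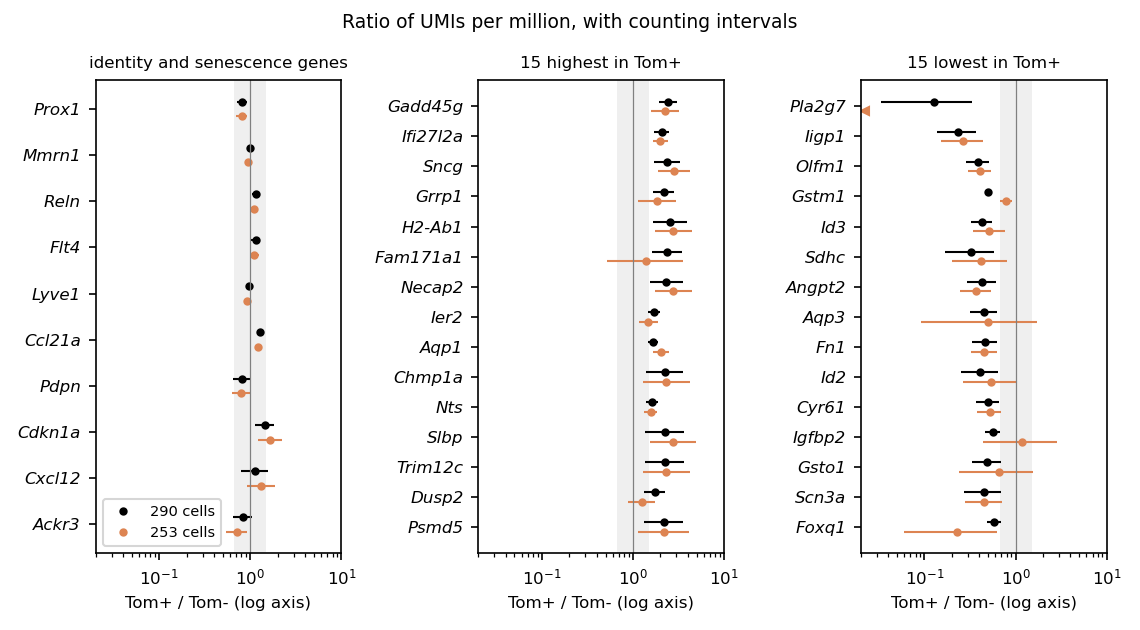
Ratio of Tom+ to Tom- level (log axis, points) with 95% counting intervals (lines) in the 290 cells (black) and in the 253 cells (orange), for identity and senescence genes, the 15 highest and the 15 lowest genes, with 0.667 to 1.5 in grey; a triangle at the left edge marks a gene with no Tom+ UMI. Prox1, Mmrn1, Reln, Flt4 and Lyve1 lie in the grey band, and Fam171a1, Dusp2, Gstm1 and Igfbp2 move toward or past 1 without the other cells.

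Antigen presentation was the list that stood farthest above the median of all genes among lists with over 5 measured genes. In sub-cluster 2 alone it did not: its median log2 ratio was 0.26 and that of interferon-stimulated genes 0.31, over 9 genes each. Of its 17 measured genes 6 were at least 1.5 times higher in Tom+ and 0 lower, against 6.38% of all genes higher. Their log2 ratios had a median of 0.52, and in the 253 cells 7 were higher and the median was 0.37. The class I heavy chains H2-D1 and H2-K1, present in most cells, were at 1135 and 1465 CPM and at 945 and 1161 CPM, ratios of 1.29 and 1.23. The class II genes differed more: Cd74 was at 69.2 and 216 CPM, H2-Ab1 at 29.1 and 74.7, H2-Eb1 at 25.5 and 73.1 and H2-Aa at 29.1 and 63.1 CPM. In sub-cluster 2 alone the direction of Cd74 turned, with 9 UMIs in Tom- and 0 in Tom+. This rested on few cells. The share of cells with at least 3 UMIs of the 4 genes was 11.7% (7.55 to 17.0) in Tom- and 11.8% (6.05 to 20.2) in Tom+, and among the 253 cells 9.47% (5.51 to 14.9) and 8.33% (3.42 to 16.4). In Tom+, 1 cell held 81 and another 71 of 257 class II UMIs, whereas in Tom- the most in any cell was 30 of 252. The class II ratio was 2.79 (2.34 to 3.33) and 3.08 (2.52 to 3.77) in the 253 cells. Within the 290 cells it was 2.21 (1.81 to 2.71) without the highest cell of each library and 1.47 (1.15 to 1.86) without the highest 2. The list's median log2 ratio was then 0.24. Of the 23 and 11 cells with at least 3 class II UMIs, 14 and 6 were in sub-cluster 0 and 6 and 4 in sub-cluster 3, the one led by blood vessel genes. Prox1 was held by 16 and 8 of them and Lyve1 by 14 and 3. Leukocyte markers could not set these cells apart, since all lymphatic cells were sorted CD45-negative. In each library 8 of 9 markers, Ptprc among them, had no UMI in lymphatic cells.

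**Figure D4:**
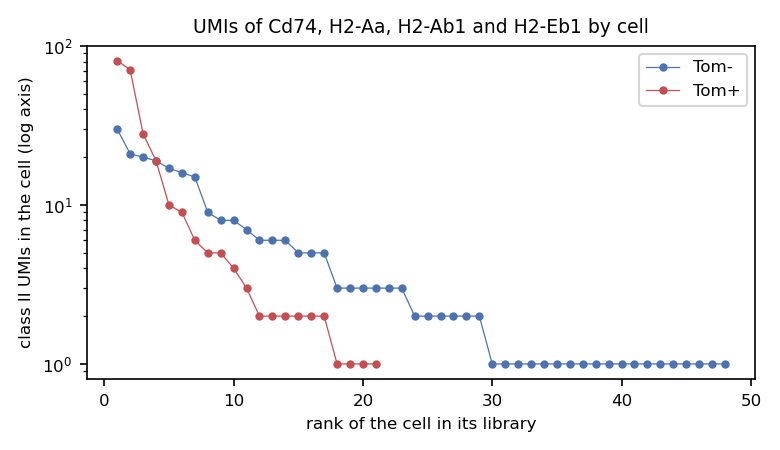
UMIs of Cd74, H2-Aa, H2-Ab1 and H2-Eb1 summed in each lymphatic cell with at least 1 of them (points, log axis) against the cell's rank in its library, Tom- in blue (48 cells) and Tom+ in red (21 cells). The curves differ at the top, where 2 Tom+ cells hold 81 and 71 UMIs and no Tom- cell exceeds 30.

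Interferon-stimulated genes were split: of 22 measured, 4 were at least 1.5 times higher in Tom+ (Ifi27l2a, Xaf1, Irf9 and Ddx58) and 5 lower (Iigp1, Igtp, Gbp4, Gbp7 and Isg15), against 6.38% of all genes higher and 8.7% lower, and the median of their log2 ratios was -0.01. Among the 253 cells 6 of 20 were higher and 6 lower, against 7.08% and 8.7% of all genes. The members lower included GTPases of the interferon-gamma response, Igtp at 35.2 and 14.9 CPM. Of 14 measured genes of BMP and TGF-beta signalling 0 were higher and 4 lower, Id1, Id2, Id3 and Smad7, all direct targets of these pathways, and among the 253 cells 0 of 13 were higher and 3 lower. Id1 was at 285 and 168 CPM and Id3 at 268 and 115 CPM. In the 253 cells Id1 was at 108 and 85.3 CPM, inside 1.5 times, and Id3 at 143 and 73.7 CPM (0.516, 0.342 to 0.757). Immediate-early and dissociation genes, which enzymatic digestion can induce, were higher in 8 and lower in 2 of 41, but in the 253 cells in 3 and 1 of 38. Of 33 measured basement membrane and matrix genes 0 were higher and 5 lower, among them Efemp1 (38.3 and 8.30 CPM) and Ecm1 (28.5 and 6.64 CPM), which fibroblasts of the Tom- library carried at 697 and 531 CPM. Among the 253 cells 0 of 31 were higher and 7 lower. Dcn was lower in Tom+ as well, by a ratio of 0.233, and the part of free RNA in these values was not tested.

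**Figure D5:**
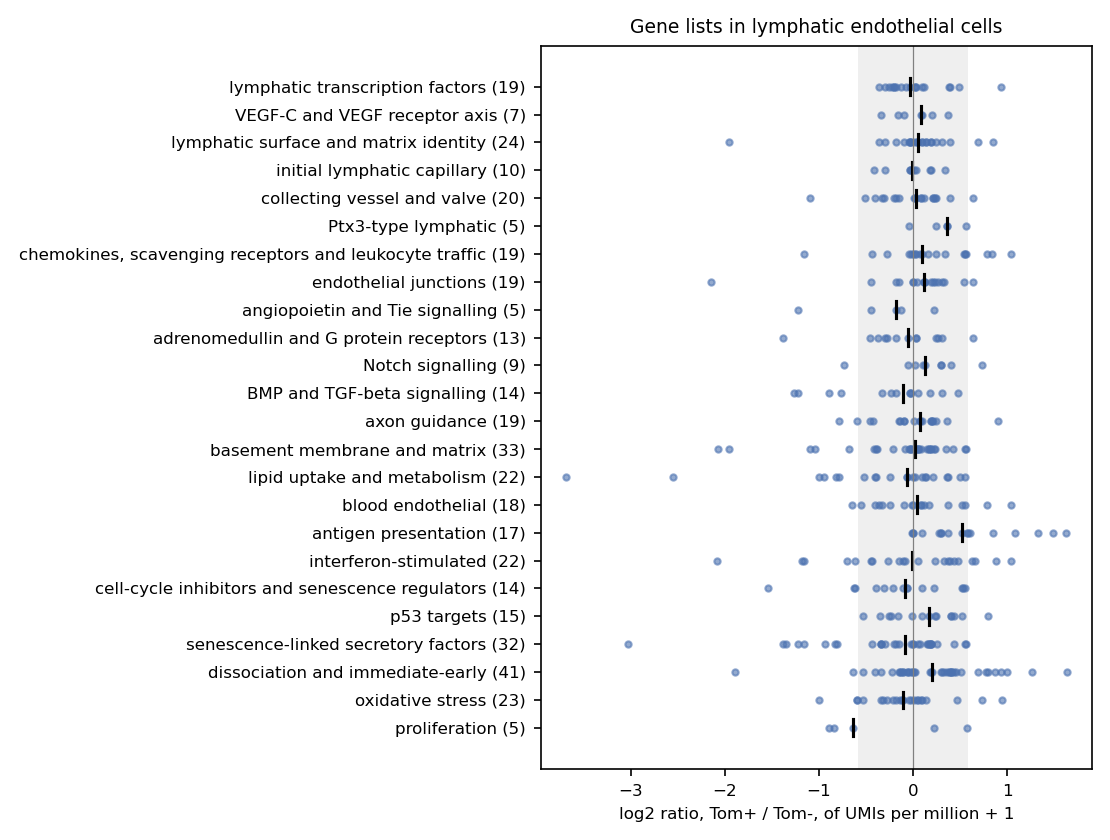
Log2 ratio of Tom+ to Tom- level for each measured gene (points) of 24 lists (rows, with the number of measured genes) in the 290 cells, with the list's median (black line) and 1.5 times in either direction in grey. Most medians lie near 0, that of antigen presentation at 0.52 and that of proliferation, with 5 genes, at -0.64.

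Among chemokine and traffic genes, 3 of 19 were higher and 1 lower, beside the 6.38% and 8.7% of all genes, and among the 253 cells 0 of 13 were past 1.5 times. The higher ones were Ackr1, Selp and Alcam, and Ackr1 and Selp had 0 UMIs in Tom+ and 0 and 1 UMI in Tom- once the blood and urothelial sub-clusters were left out. Vcam1, an adhesion receptor for leukocytes, was the lower one, at 34.6 and 14.9 CPM. The ratio of Cxcl12 was 1.12 (0.795 to 1.56) and that of Ackr3 0.825 (0.646 to 1.05), or 0.712 (0.547 to 0.917) in the 253 cells. That of Cxcl12 turned, to a log2 ratio of -0.52, with no collagen limit. For the Notch list, Dll1 was higher (28.5 and 48.2 CPM) and its target Hey1 lower (25.5 and 14.9 CPM) of 9, and 1 and 1 of 8 among the 253 cells. Of 22 lipid genes 0 were higher and 6 lower, including Lpl (lipoprotein lipase, 53.4 and 29.9 CPM) and Fabp4. In the 253 cells 1 of 16 was higher and 2 lower.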

How the data were processed

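Per the labels' protocols, 1 bladder was digested with collagenase and DNase, live CD45-negative cells were sorted by tdTomato, and libraries were made with the 10x 3′ v3.1 kit. The authors deposited for each library a matrix of unnormalized UMI counts, with 31054 features. Cell Ranger 7.0.0 and mm10 are named per the submitters' processing notes, and software 3.0.2 per the file headers. The barcodes' selection as cells, and whether intronic reads were counted, are not given in the sources used here.

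Barcodes were kept from 1000 UMIs and 500 genes upward if mitochondrial UMIs were under 15%, and those of both libraries only where the copy was over 10 times deeper. This left 9919 Tom- and 1741 Tom+ cells. Doublets were not removed except as an alternative. Counts were summed over cells and scaled to CPM. Log2 ratios were taken after adding 1 CPM. Genes counted as measured from 20 CPM in 1 library and 30 UMIs over both. The lymphatic cells were clustered with scanpy 1.11.5 (1000 variable genes without tdTomato, 15 components, 10 neighbours, Leiden resolution 0.5). A sub-cluster with a marker of blood endothelium, fibroblasts or urothelium among its 10 leading genes was left out of the 253 cells, a choice made after seeing the data. Genes named between fractions were the 15 highest and 15 lowest by the bound of the ratio nearest to 1, from 50 CPM and detection in 10% of cells in the higher library, no cell with over 25% of its UMIs and not under 5% of another class's level. Genes named against blood endothelium were the 15 highest and 15 lowest in the library with the smaller difference. Both rankings left out the genes of the gates, tdTomato, mitochondrial, ribosomal protein and haemoglobin genes. Symbols with more than 1 identifier, clone-type names, Xist and Y-linked genes were left out too. List members were named for their place at the ends of a list, for passing the fold or for their role. Il7, Il33, Emcn and the class II genes were named after their values were seen, and the promoters of Ccl21a and Reln were chosen then too. The members, the rule and the gene lists were chosen with earlier results of these data known. Scripts were tested on simulated data. Python 3.11.15, numpy 2.4.6, scipy 1.17.1 and pandas 2.3.3 were used.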

Additional observations from a re-analysis of the deposited data

Results flagged for a closer look

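Of 5844 genes measured in both classes, 4 moved at least 1.5 times in opposite directions in lymphatic and blood endothelial cells, with intervals of the ratio on either side of 1. The difference between the classes was not tested, since each fraction had 1 library. Ifi27l2a was 2.06 times higher in Tom+ lymphatic cells (1.71 to 2.48) and 2.00 times in the 253 cells, while in blood endothelial cells its level was 82.5 and 22.5 CPM, which is 0.273 times (0.190 to 0.380). Hs3st1, a heparan sulfate sulfotransferase, had a ratio of 0.647 (0.405 to 0.999) in lymphatic and 1.78 (1.47 to 2.14) in blood endothelial cells, and in the 253 cells its interval included 1 (0.321 to 1.07). The ratio of Nr4a1, an immediate-early nuclear receptor, was 1.86 against 0.576, and that of the metallothionein Mt2 was 1.95 against 0.618. In the 253 cells Nr4a1 had a ratio of 0.438 and Mt2 of 1.38, with intervals that include 1.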

How the results depend on the processing

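No paired analysis was possible because each fraction had 1 library. Of 95 recomputed shares, reporter ratios, counts and cluster numbers, 80 stayed within the counting interval or within 1.5 times. Among them the tdTomato ratio could not move when the added CPM, the low-value filter or the centring on the median was changed. The share of lymphatic cells in Tom- was 1.36% with a collagen limit of 10, 2.46% with none, 1.45% without cells holding blood endothelial markers and 1.70% in the 253 cells, where the tdTomato ratio was 49.0. Genes higher in Tom+ numbered 818 with equal weight per cell, 256 after thinning, 2085 with no low-value filter and 139 with a 50 CPM filter. Genes lower numbered 343, 3776 and 140 under the last 3, and 365 in sub-cluster 2 alone. Genes lower than in blood endothelium numbered 564 in the 253 cells, and Leiden resolution 1 gave 9 sub-clusters. Of 1007 recomputed gene log2 ratios 863 stayed within the counting interval and 39 changed sign. Part of the 863 was fixed in advance. A changed low-value filter cannot alter a gene's ratio, and centring on a median close to 0 hardly does. Of the sign changes, 30 belonged to genes inside 1.5 times in the 290 cells, such as Prox1, Flt4 and Cdh5. The 9 past 1.5 times were Fam171a1 (-0.10 without cells holding blood markers), Chmp1a (-0.36 thinned), Igfbp2 (0.21 in the 253 cells) and, in sub-cluster 2 alone, Cd74 (-4.34), Klf2 (-0.75), Fam171a1 (-2.10), Dusp2 (-1.06), Cyr61 (0.37) and Scn3a (0.065). The proliferation median was 0.18 after thinning, with 1 gene measured. The cause was not tested. The 253-cell set, sub-cluster 2 alone and the sets without class II-rich cells were chosen after seeing the data. Depth limits genes under about 20 CPM.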
